A study of Mus musculus with 4 samples.

Results

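The 49 cytosolic ribosomal protein genes described here encode components of the 40S and 60S ribosomal subunits, together with a few close paralogues. They were chosen by gene symbol, as Rpl, Rps or Rplp followed by a number, or Rpsa, among the 18193 genes that had a probe set listing a single gene. This symbol rule used no measured value, but earlier results of these data were known when the set was chosen. The cells were LMPPs (lymphoid-primed multipotent progenitors), an early bone marrow population biased towards lymphoid fates. They were sorted by flow cytometry as lineage-negative, c-Kit+, Sca-1+ and Flt3-high from C57Bl/6 mice of 6 to 8 weeks, either wild type or knocked out for Lyl1, a basic helix-loop-helix transcription factor; no further detail of the allele was used here. There were 4 arrays, 2 per genotype, each carrying amplified and biotin-labelled RNA of 1 sample. The labels do not say whether the samples of a genotype came from separate mice or from pools, so each p-value reflects sample-to-sample spread that could be purely technical. In sorted bulk samples, fewer cells of a type and less RNA per cell cannot be told apart.

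Values are log2 RMA expression values, the unit in which the submitters deposited them. Each gene was read from whichever of its probe sets was brightest on average, and 46 of the 49 genes passed the filter on that mean (5.69). A further 28 symbols of the same naming pattern appear only on probe sets that list several genes, and these genes were not analysed here. The value of one probe set is not a transcript amount that can be ranked against another, so each gene is compared only with itself across arrays. The summed values of cell type markers given near the end are the exception, and the brightest probe sets weigh most in them.

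Ribosomal protein genes are transcribed at high rates in growing cells, and their mRNAs are held back or released for translation together. The shared element is the 5′ terminal oligopyrimidine (TOP) tract, a C at the first transcribed base followed by a run of C and T, which LARP1 and mTOR signalling act on. Blood progenitors are sensitive to ribosomal protein dosage: loss of 1 copy of several of these genes causes Diamond-Blackfan anaemia, and free Rpl5 and Rpl11 bind Mdm2 and so stabilise p53. The following 30-base windows, with 10 bases before the annotated start and 20 from it on, were taken from RefSeq (GRCm38.p6) to show where such runs lie in called members (Rps10, Rpl11), in Rps27l, and in 3 members named for their roles (Rps6, Rpl38, Rplp2). Capitals mark 1 run in each window, read from the annotated start where one begins there and otherwise the first found, and further pyrimidines beside it or elsewhere stand in lower case. Where a gene has several annotated starts the window with a run was taken. The called Rps14 and Rps4l had no start sequence to show, and the windows shown do not represent the members at large.
Rps10 (chr17:27635225-27635254, minus strand): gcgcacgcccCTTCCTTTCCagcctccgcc
Rps6 (chr4:86857348-86857377, minus strand): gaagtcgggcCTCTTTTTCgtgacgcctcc
Rpl38 (chr11:114668570-114668599, plus strand): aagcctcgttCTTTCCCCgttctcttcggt
Rplp2 (chr7:141447641-141447670, plus strand): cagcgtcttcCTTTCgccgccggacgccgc
Rpl11 (chr4:136053374-136053403, minus strand): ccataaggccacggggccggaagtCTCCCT
Rps27l (chr9:66946076-66946105, plus strand): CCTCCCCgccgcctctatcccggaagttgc

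In Rps10, Rps6, Rpl38 and Rplp2 a run can be read from the annotated start. In Rpl11 it lies downstream, and the p53-responsive paralogue Rps27l has the run in capitals upstream and a further one, in lower case, just after the start. The search was for a C followed by at least 4 letters C or T on the transcribed strand only. Of 43 members with a RefSeq start sequence, 8 (18.6%) had such a run opening exactly at an annotated start, against 3.01% of 27025 genes. Anywhere in the window it was found in 29 of 43 members (67.4%) and in 39.6% of all genes. Annotated starts can lie upstream of the start used in these cells, so absence from the first base says only that these letters are not there.

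Before the results, 2 facts about the libraries bear on every value. Lyl1 read 12.34 and 12.29 in the wild-type arrays, 5.14 in the library labelled Lyl1-null 1 and 10.32 in the library labelled Lyl1-null 2, so that this library, labelled as a knockout, kept 25.1% of wild-type signal, against its label. That same library differed at least 2-fold from the other 3 in 518 to 859 of the 11196 genes tested, against 42 to 128 genes among the other 3. Its values also spanned a narrower range, with an SD over probe sets of 2.34 against 2.44 to 2.48. Of the LMPP gate and lymphoid markers, 6 of 8 had a usable probe set and all 6 (Flt3, Kit, Cd34, Il7r, Dntt and Ptprc) were above the filter. The results therefore give each library labelled Lyl1-null by itself.

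**Figure D1:**
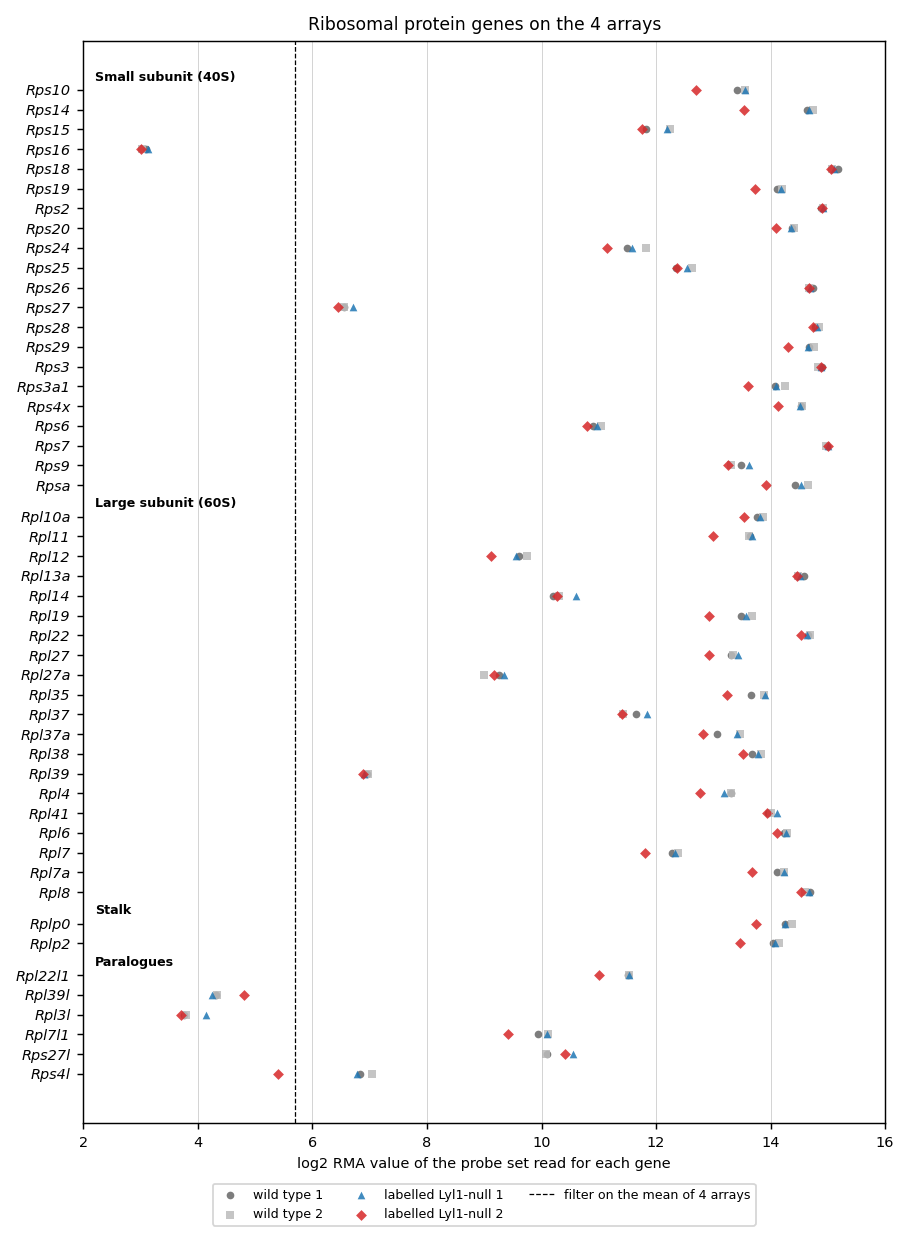
Log2 RMA value of the probe set read for each of the 49 genes (horizontal axis) on the 4 arrays (symbols), grouped by ribosomal role, with the filter value of 5.69 as a dashed line. For 38 of the 46 genes above the filter the red diamond, the library labelled Lyl1-null 2, is the lowest of the 4, and Rps16, Rpl39l and Rpl3l lie left of the line.

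With both libraries labelled Lyl1-null set against both wild-type arrays, no ribosomal protein gene passed the test. Of the 46 tested genes, 0 passed limma's test at an adjusted p of 0.05 (background 0.00893% of all genes) and 1 had an unadjusted p under 0.05, where 6.84% of all genes did. The members' median difference was −0.14 on the log2 scale, beside −0.05 over all genes tested, and 36 of 46 were negative (56.9% of all genes). In 8 members (17.4%) both libraries labelled Lyl1-null lay below both wild-type arrays, a smaller share than the 24% of all genes. These were Rpl4, Rpl12, Rpl22, Rpl39, Rps4l, Rps4x, Rps20 and Rps29. Above both wild-type arrays lay 2 of the 46, Rps27l and Rps7 (background 18.7%). Rps7 did so only narrowly, at 14.9939 and 14.9941 beside 14.9931 and 14.972 in wild type. In simulated data the same test recovered 13.8% of 2-fold and 87.2% of 4-fold changes. Even there, differences of the members' size (from −0.84 to 0.40) were mostly below what 2 arrays per group can detect. The simulated arrays shared 1 spread per gene, which the real arrays need not do. In the real data Lyl1 itself differed by −4.58 (SE 1.57, limma adjusted p = 0.644) and did not pass. The simulated shares therefore do not give the power of the real test.

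The pooled median of −0.14 became 0.0098 without the library labelled Lyl1-null 2 and −0.29 without the one labelled Lyl1-null 1. In the library labelled Lyl1-null 1 the ribosomal protein genes stood at the wild-type level, with a median difference of 0.01 (all genes −0.01), 27 of 46 positive (48.3% of all genes) and a range of −0.14 to 0.47. None of the 46 passed (background 0.196%), and 1, Rps27l, had an unadjusted p under 0.05 (background 6.74%). For scale, the 2 wild-type arrays differed between themselves by a median of 0.07 over the members, from −0.26 to 0.41 for single genes. After centring each array on its median, the median for this library was −0.02, so it has no settled sign.

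In the library labelled Lyl1-null 2 most ribosomal protein genes read lower. The median difference from wild type was −0.29, beside −0.08 over all genes, and 41 of 46 members (89.1%) were negative, against 56.8% of all genes. Genes that passed numbered 4 (8.70%), all lower, beside 10.8% of all genes called lower and 3.94% called higher there. At an unadjusted p under 0.05, 21 members (45.7%) were lower and 0 higher, against 22.9% and 13.2% of all genes. Each of these tests sets 1 array against 2 and assumes that the lone array varies like wild type. In simulated data this comparison recovered 1.20% of 2-fold and 61.4% of 4-fold changes. Those data took their spread from the fit that pools both libraries and changed only 200 genes. The real comparison takes its spread from the wild-type pair and the prior over genes, so these shares do not give its power. Set directly against the library labelled Lyl1-null 1, it was lower in 44 of 46 members (background 55.2%), with a median of −0.37, and 2 members passed, Rps14 and Rps4l (4.35%, background 2.47% called lower). That comparison sets 1 array against 1, so its spread comes wholly from the wild-type pair and the shared prior.

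**Figure D2:**
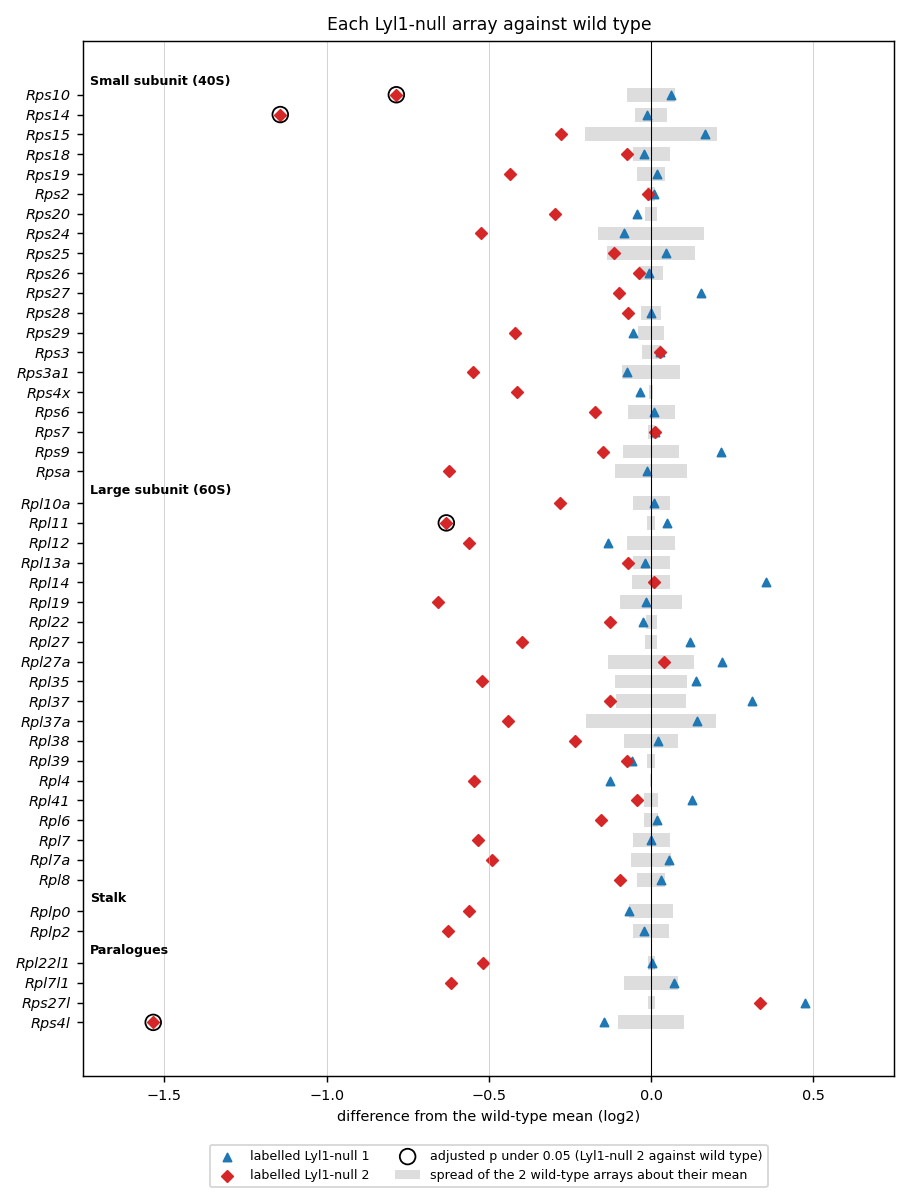
Difference of each library labelled Lyl1-null from the wild-type mean (log2, horizontal axis) for the 46 genes above the filter, with the spread of the wild-type arrays as grey bars and circles on the 4 genes past the threshold. Blue triangles (Lyl1-null 1) lie around 0, between −0.14 and 0.47, while red diamonds (Lyl1-null 2) lie mostly left of 0, with Rps4l at −1.53 and Rps14 at −1.14.

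Among the 40S proteins, Rps14 and Rps10 passed in the library labelled Lyl1-null 2. Rps14 is a component of the small subunit whose reduced dosage underlies the anaemia of the 5q- syndrome in humans. It read 14.63 and 14.73 in wild type, 14.67 in the library labelled Lyl1-null 1 and 13.54 in the one labelled Lyl1-null 2. Only the last stood apart, 1.14 below wild type on the log2 scale (SE 0.17, limma adjusted p = 0.0131), or 0.453 of the wild-type mean. A second Rps14 probe set gave the same difference, −1.14. Rps10, a Diamond-Blackfan anaemia gene, read 13.41 and 13.56 in wild type, 13.55 and then 12.70. Its fall of 0.79 in the library labelled Lyl1-null 2 (SE 0.17, limma adjusted p = 0.0331) was seen at −0.36 to −0.91 in 4 other probe sets and at −0.02 in 1 dimmer one. The remaining 40S members that had been singled out for their roles did not pass. Rpsa, a 40S component also known as the laminin receptor, read 14.43 and 14.65 in wild type, 14.52 and 13.91. Rps19, the gene most often mutated in Diamond-Blackfan anaemia, read 14.12 and 14.20, then 14.18 and 13.73. For Rps6, the substrate of the S6 kinases, the values were 10.89 and 11.04, then 10.98 and 10.79. Rps4x, the X-linked copy of Rps4, read 14.54 and 14.55, then 14.51 and 14.13. In each of these 4 genes the library labelled Lyl1-null 2 lay lowest, and the other lay between the wild-type arrays except in Rps4x, where it lay just below them. Over the 20 tested 40S genes the median difference was −0.23 in the library labelled Lyl1-null 2 and 0.00 in the other.

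The 60S proteins showed the same split between libraries, with medians over 20 genes of −0.26 and 0.03. Rpl11, which binds Mdm2 when free of the ribosome, was the 1 large-subunit gene that passed. It read 13.64 and 13.62 in wild type, 13.68 in the library labelled Lyl1-null 1 and 13.00 in the one labelled Lyl1-null 2, a difference of −0.63 (SE 0.16, limma adjusted p = 0.0492). Rpl38, known for its part in the translation of Hox mRNAs in the embryo, read 13.67 and 13.84, then 13.77 and 13.52. Rpl22, which is dispensable for general translation but needed in developing T cells, read 14.65 and 14.68, then 14.64 and 14.54. Its difference was −0.13 in the library labelled Lyl1-null 2 (limma adjusted p = 0.611). Rpl7 read 12.27 and 12.39, then 12.33 and 11.80. In the library labelled Lyl1-null 1, Rpl14 was at 0.35 and Rpl37 at 0.31, neither past the threshold. The stalk proteins recruit elongation factors to the ribosome. Rplp0 read 14.24 and 14.38 in wild type, 14.24 and 13.75, and Rplp2 read 14.04 and 14.15, then 14.07 and 13.47. Their differences in the library labelled Lyl1-null 2 were −0.56 and −0.63, just outside the threshold (limma adjusted p = 0.0703 and 0.0535).

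Of the 4 tested paralogues, Rps4l passed in the library labelled Lyl1-null 2, and none passed with both libraries pooled or in the one labelled Lyl1-null 1. Rps27l, a paralogue of Rps27 that p53 activates, was the member with the smallest p when both libraries were pooled and read above both wild-type arrays in both. It read 10.09 and 10.07 in wild type, 10.56 in the library labelled Lyl1-null 1 and 10.42 in the one labelled Lyl1-null 2. The groups did not overlap, and the difference of 0.40 (SE 0.16) did not pass (limma adjusted p = 0.644, unadjusted p = 0.0479). All 3 of its probe sets were higher in both libraries, by 0.34 to 0.54. Rps27 itself read 6.55 and 6.55 in wild type, 6.70 and 6.45. Rps4l, an autosomal paralogue of Rps4x, read 6.83 and 7.03, then 6.79 and 5.40. The last value lies below the filter, which the gene passed through the other 3 arrays, so the fitted difference of −1.53 (SE 0.18, limma adjusted p = 0.00857) has no exact size. Rpl22l1, the paralogue of Rpl22, read 11.51 and 11.53, then 11.52 and 11.002, and Rpl7l1 read 9.94 and 10.11, then 10.09 and 9.41. Neither passed in the library labelled Lyl1-null 2 (limma adjusted p = 0.0764 and 0.0589).

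Of the other members, 3 lay below the filter and were not tested. Rpl3l, a muscle-enriched form of Rpl3, read between 3.70 and 4.14, and Rpl39l, a testis-enriched form of Rpl39, between 4.24 and 4.80. Rps16 encodes a core 40S protein, yet its 1 single-gene probe set read between 3.003 and 3.13, so this probe set gives no usable value. Rpl39 was also dim for a core protein, between 6.89 and 6.98. The members include 9 Diamond-Blackfan anaemia genes. Their differences had a median of −0.42 for the library labelled Lyl1-null 2 and of 0.01 for the other, and Rps10 and Rpl11 were the 2 called, beside a median of −0.08 and 10.8% called lower over all genes in the former.

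Probe sets of one gene did not always agree. The 49 genes had 105 probe sets, 96 of them above the filter. Of those 96, 81 were negative in the library labelled Lyl1-null 2 (median −0.36) and 43 in the one labelled Lyl1-null 1 (median 0.01). For 23 genes with several probe sets above the filter, all of them had 1 sign of the pooled difference in 12. Signs differed in Rpl13a, Rpl35, Rpl41, Rps4x, Rps6, Rps7, Rps9, Rps15, Rps18, Rps28 and Rpsa. In Rps9, a core 40S protein, the library labelled Lyl1-null 2 gave −0.15 for the probe set read for the gene and −1.39 and −1.29 for its other probe sets. In Rpsa the bright probe set differed by −0.62 there and a dim one by 0.90. For 16 members the probe set carried the suffix _x_at or _s_at, which marks probes that can match related sequences, and processed pseudogenes of ribosomal protein genes are many. Leaving those 16 out gave a median of −0.41 over 30 genes for the library labelled Lyl1-null 2.

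**Figure D3:**
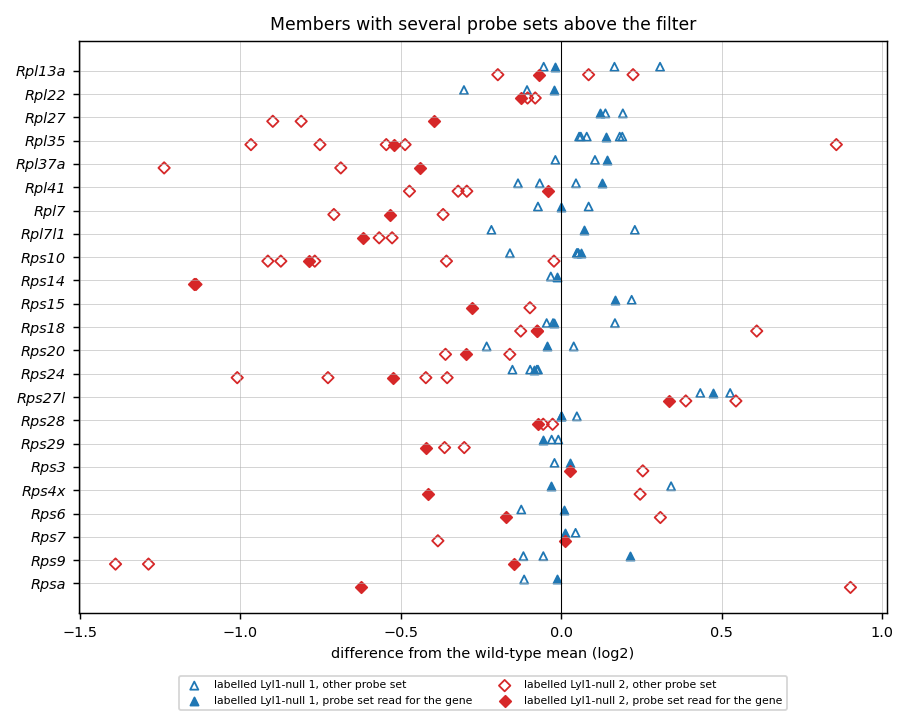
Difference from the wild-type mean (log2) for every probe set above the filter of the 23 genes that have several, with filled symbols for the probe set read for the gene and open symbols for the others. Rps27l is right of 0 in all 3 probe sets and both libraries, Rps14 is at −1.14 in both probe sets of the library labelled Lyl1-null 2, and Rps9 and Rpsa spread widely there.

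Most members read near the top of the array's scale, 37 of 46 among the 1120 tested genes with the highest mean values. The 13 members with the highest wild-type means (14.54 and above), a boundary set after the values were seen, had a median difference of −0.07 in the library labelled Lyl1-null 2. For the other 33 it was −0.43. Both sets hold exceptions: Rps14 (−1.14), Rpsa (−0.62), Rps29 (−0.42) and Rps4x (−0.41) are among the 13, and the dim Rpl39 (−0.07) and Rps27 (−0.10) among the 33. Rps3 read 14.89 and 14.83 in wild type and 14.89 in both other libraries, and Rps7 read 14.99, 14.97, 14.99 and 14.99. Over those 1120 genes the median difference in that library was −0.06, and it was 0.25 over the 1119 tested genes with the lowest means. Between these ends it was lowest, at −0.21, over 1119 genes with means of 8.35 to 8.91. The median thus did not change in a single direction with the mean. The part that signal near the upper end of the scale has in these values was not tested.

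**Figure D4:**
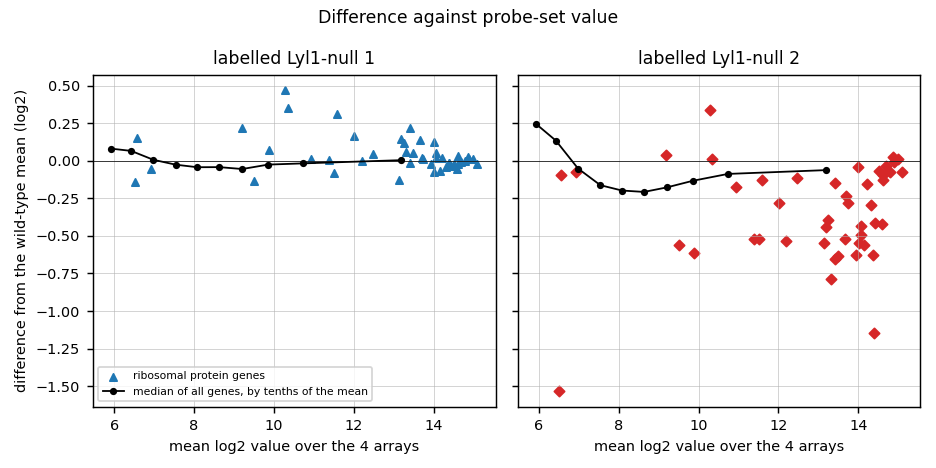
Difference from the wild-type mean (log2, vertical axis) of each ribosomal protein gene against its mean over the 4 arrays (horizontal axis), for each library labelled Lyl1-null, with the median of all tested genes in 10 bins of the mean as a black line. In the right panel most members lie below the line, and the 13 brightest range from −1.14 to 0.03 with a median of −0.07.

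No other gene of translation in the lists below passed with both libraries pooled. In the library labelled Lyl1-null 2 the values over all genes, for reading each count, were a median of −0.08, 56.8% negative and 10.8% called lower, and in the other library 0.196% were called. Among elongation factors and other genes with TOP mRNAs, 16 of 20 were negative in the library labelled Lyl1-null 2, with a median of −0.37, and 3 passed as lower, where 10.8% of all genes did. Eef2, the elongation factor that moves the ribosome along the mRNA, read 13.08 and 13.25 in wild type, 12.85 and then 10.92. On the log2 scale it fell by 2.25 in the library labelled Lyl1-null 2 (SE 0.17, limma adjusted p = 0.00433). For Eef1a1, which delivers aminoacyl-tRNA, the difference there was −0.45 and did not pass. Initiation factors had a median of −0.17 in that library, with Eif4e, the cap-binding protein, at 0.34 and Eif3m at −0.40. Ribosome biogenesis factors had medians of −0.11 there and 0.07 in the other library, with 7 of 50 and 0 of 50 called (10.8% of all genes called lower and 0.196% called). The nucleolar methyltransferase Fbl was at −0.69 and −0.24 in these libraries, and Efl1, the GTPase that releases Eif6, at −0.58 and −0.26. Genes of RNA polymerase I and rDNA transcription had a median of −0.25 in the library labelled Lyl1-null 2, where Polr2h, a subunit shared by the polymerases, fell by 1.24 and Polr1d differed by 0.32.

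Mitochondrial ribosomal protein genes, whose products translate mitochondrial mRNAs, had a median of 0.11 in the library labelled Lyl1-null 1, where 64 of 76 were positive (48.3% of all genes) and 0 passed. The difference between them and the cytosolic set was not tested. The library labelled Lyl1-null 2 had 55 of 76 negative, a median of −0.16 and 11 called lower, beside 56.8% negative, a median of −0.08 and 10.8% called lower over all genes. Among those called was Mrps5 at −1.29, while Mrpl57 was at 0.20. Upstream control genes were mixed. The mTOR, S6 kinase and LARP1 list had a median of −0.22 in that library with 4 of 16 called lower (10.8% of all genes), among them Tsc1, an inhibitor of mTOR complex 1, at −0.999. Rictor, of mTOR complex 2, was at −0.44. In the Myc network, whose factors drive ribosomal protein transcription, Mycn was at 0.59 and 0.48 in the libraries labelled Lyl1-null 1 and 2. Its antagonist Mxd1 was at −0.29 and −1.17, and the list median was −0.01 in the latter.

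In the list from ribosomal stress to p53, 7 of 9 genes were negative with both libraries pooled (56.9% of all genes) and 0 passed. Taken singly, the library labelled Lyl1-null 1 had 6 of the 9 negative (51.7% of all genes), down to −0.39. The one labelled Lyl1-null 2 had 5 negative (56.8% of all genes), down to −0.63. Cdkn1a passed as higher in each library labelled Lyl1-null and Phlda3 in the one labelled Lyl1-null 2, where 3.94% of all genes were called higher. Cdkn1a, the cell cycle inhibitor that p53 induces, was at 1.56 and 2.40 in the libraries labelled Lyl1-null 1 and 2, and Phlda3, an Akt inhibitor induced by p53, at 0.49 and 0.82. Rps27l was at 0.47 and 0.34. Mdm2, also a p53 target, was at −0.26 and 0.17. The 4 genes are set side by side only, since all comparisons share the wild-type arrays.

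**Figure D5:**
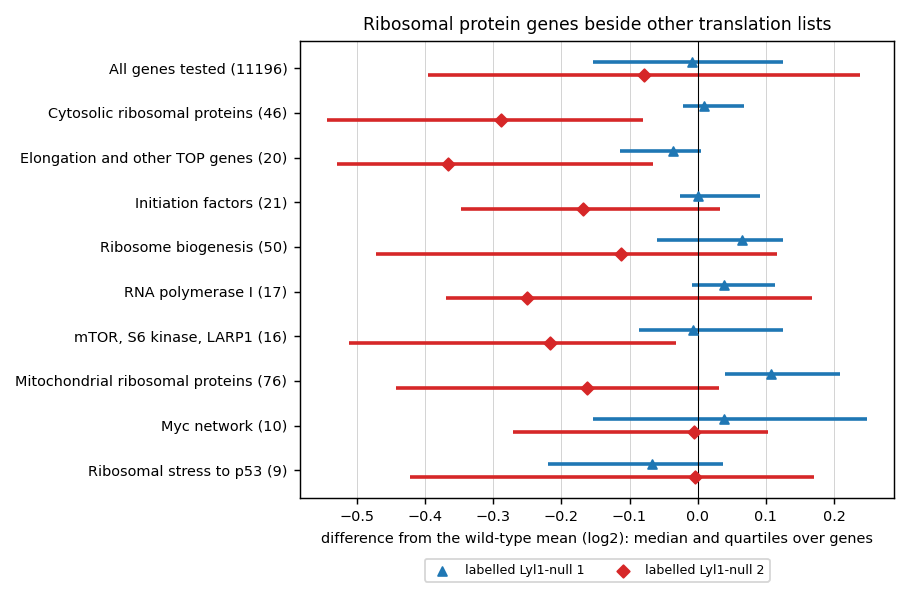
Median (symbols) and quartiles (lines) of the difference from the wild-type mean (log2) over the tested genes of each list, with the number of genes in brackets, for each library labelled Lyl1-null. Cytosolic ribosomal proteins sit at 0.01 (blue) and −0.29 (red), elongation and other TOP genes at −0.04 and −0.37, and mitochondrial ribosomal proteins at 0.11 and −0.16, beside −0.01 and −0.08 for all genes.

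Markers of the sorting gate and of other cells moved between libraries as well. The summed value of the 6 gate and lymphoid markers was 15.12 and 15.19 (log2) in wild type. It was 15.10 in the library labelled Lyl1-null 1 and 14.78 in the one labelled Lyl1-null 2. Both of these libraries lay below both wild-type arrays in 4 of the 6 markers and above them in 1 (24% and 18.7% of all genes). In the library labelled Lyl1-null 1, 4 of the 6 were negative (51.7% of all genes), with a median of −0.21 and a range of −0.61 to 0.76. In the library labelled Lyl1-null 2, 5 of the 6 were negative (56.8% of all genes). The 6 ranged there from −1.20 to 0.54, so 1 of them was higher. For 11 neutrophil markers, 8 of them above the filter, the sum was 13.77 and 13.81, then 13.74 and 13.31. Of those 8, 5 were positive in each library labelled Lyl1-null (48.3% and 43.2% of all genes), with medians of 0.97 and 0.62. Within that list Ngp, S100a8 and Ltf were higher in both libraries labelled Lyl1-null, by 2.06, 1.77 and 1.76 in the first. Mpo was lower in the one labelled Lyl1-null 2. Of 8 erythroid markers, 7 were above the filter, and the sum over the 8 was 13.43 and 13.14, then 12.66 and 12.77. Single genes were mixed. In the library labelled Lyl1-null 1, 2 of 7 were positive (48.3% of all genes), with a median of −0.32. In the one labelled Lyl1-null 2, 4 of 7 were positive (43.2% of all genes), with a median of 0.24. The B cell sums were 10.89 and 10.94, then 11.34 and 11.11. The T and NK cell sums were 11.58 and 11.52, then 11.89 and 11.68. Both sums thus lay above both wild-type arrays in each library labelled Lyl1-null. The plain mean over the T and NK cell markers did not, at 6.65 and 6.59 in wild type, then 6.64 and 6.62. Of 5 B cell markers above the filter, 3 were positive in each of these libraries. For T and NK cells it was 4 of 6 (48.3% and 43.2% of all genes). Megakaryocyte, dendritic cell and macrophage, and stromal markers, with sums between 8.75 and 12.76, did not sum above both wild-type arrays in both libraries. The part of any of these in the ribosomal protein values was not tested.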

How the data were processed

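The submitters' processing notes name RMA, and the deposited log2 values were used as they stood; its version and the arrays normalized together were not given in the sources used here. RMA corrects background, equalises arrays and summarises probes, so a shift shared by most genes would be removed. Of 45037 probe sets, 34945 had 1 gene symbol in the platform annotation, 932 had several and 9160 none. Genes were read from the brightest probe set and tested at a mean of at least 5.69, the median over probe sets, which left 11196 genes. Differences, SE and adjusted p-values come from limma 3.58.1 (lmFit, eBayes, two-sided, Benjamini-Hochberg over all genes) under R 4.3.3. Libraries labelled Lyl1-null were tested together, and singly in a model with a coefficient each. The test was tested on simulated data with 200 changed genes. The number of arrays limits precision. The members, lists and naming rule were chosen with earlier results of these data known; the rule took called members, those of known role, those below the filter, and 2 genes per list with the smallest p. Rps3, Rpl14, Rpl37, Mdm2 and the single marker genes lie outside it and were named after their values were seen. Alternatives were the filter, mean of probe sets, quantile normalization, median centring, variance prior, array weights, threshold, replicate block and each array left out.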

Additional observations from a re-analysis of the deposited data

How the results depend on the processing

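The count of 0 called ribosomal protein genes with both libraries pooled held in all 12 alternatives other than leaving out an array, including the replicate block (0 called, smallest adjusted p 0.908), and 0 was also found in all 9 alternatives for the library labelled Lyl1-null 1. Leaving out 1 array gave 0 to 4, with 4 without the library labelled Lyl1-null 1. The pooled median ranged from −0.29 to 0.0098 when 1 array was left out. Deviations of same-numbered arrays correlated at −0.41 over 11196 genes, and a block that pairs unlike numbers, chosen after seeing the data, also called 0. In the library labelled Lyl1-null 2 the count of 4 became 0 without a filter, 9 with the mean of probe sets, 18 with median centring, 16 at a threshold of 0.10 and 10 with a trended prior. Its median was negative in every alternative run, from −0.41 to −0.21. Median centring and quantile normalization moved the median of all genes there from −0.08 to −0.20 and to 0.06; relative to it the members stood at −0.21 as deposited, −0.21 and −0.26. Against the library labelled Lyl1-null 1 the count of 2 became 0 without a filter, 1 with the 70th percentile filter, 1 without _x_at and _s_at probe sets, and 4 with median centring. Why these counts moved was not tested. Among named genes, the pooled difference changed sign with the mean of probe sets for Rps4x (0.035), Rps6 (0.0053) and Rpsa (0.037), with median centring for Rps27 (−0.047) and with quantile normalization for Rpl39 (0.034). With arrays left out in turn, values ranged from −0.63 to 0.050 for Rpl11, −0.52 to 0.0024 for Rpl22l1, −0.23 to 0.020 for Rpl38, −0.53 to 2e-05 for Rpl7, −0.62 to 0.071 for Rpl7l1, −0.43 to 0.017 for Rps19, −0.17 to 0.0096 for Rps6 and −0.10 to 0.15 for Rps27. None of these was called with both libraries pooled.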
